A study of Mus musculus with 4 samples.

Results

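The 10301 regions described here carried a called peak of the histone mark H3K27me3 in KO replicate 2 and in WT replicate 1, and in neither KO replicate 1 nor WT replicate 2. They were chosen by peak presence: the peaks of all 4 lists on chromosomes 1 to 19 were pooled, overlapping or touching peaks were merged, and a merged region was kept if it met both of the broader lists and none of the narrower ones. This gave 10301 of 116146 merged regions, or 8.87%. Because the rule reads the peak lists, every value of coverage or height inside the regions is a description of the selection. Each genotype contributes 1 list that holds these regions and 1 list that lacks them, so by construction the regions do not separate the genotypes.

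The study compared germinal center B cells from the spleen of mice that lack Kdm6b in B cells (KO, n = 2) with those of wild-type mice (WT, n = 2), all on the C57BL/6 background. The sample titles call the cells pre-plasma. Sheep red blood cells were given to all 4 mice, which were challenged again 5 days later and killed at day 12. H3K27me3 was profiled by CUT&Tag, in which an antibody directs a transposase to cut and tag DNA beside the mark, from small numbers of sorted cells. The labels used here do not give the Cre line and deleted exons, the markers used for sorting, or the sex and age of the mice. The labels carry no replicate numbers, and the numbers used here follow the order of the samples.

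H3K27me3 is placed on histone H3 by Polycomb repressive complex 2 and marks genes held silent, often over broad domains that span developmental regulators. Kdm6b, also called Jmjd3, is a demethylase that takes the mark off. In the germinal center, B cells divide and mutate their antibody genes, and their exit towards plasma cells needs genes of the secretory pathway and of migration to become active.

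The 4 lists were of similar length but not of similar breadth. KO replicates 1 and 2 held 79756 and 89274 peaks, and WT replicates 1 and 2 held 86471 and 81484. They covered 143 and 234 Mb in KO and 211 and 101 Mb in WT. Median peak widths were 1142 and 1560 bp in KO and 1516 and 862 bp in WT. The broad pair therefore took 1 mouse of each genotype, and read depths are unknown. The lowest total signal that a peak had in each list also differed, at 140252 and 106405 in KO and 126328 and 159426 in WT, in signal units. The label was checked against marker genes of B cells, germinal center B cells, T cells, myeloid and erythroid cells. Peaks covered none of Bcl6 or S1pr2 in any list, whereas the T cell genes Cd3e and Cd4 and the myeloid gene Cd14 were covered in all 4. KO replicate 2 alone covered 58.9% of Cd79b and 11.7% of Cd79a, B cell receptor genes at 0% in the other lists, and the part of this in which regions that list holds was not tested.

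In 9 genes of the lists used here, which cover immune, Polycomb, developmental and neural genes, the promoter lay wholly inside a region. The first 6 of them by name are shown to let their base make-up be seen. They span 300 bases, from 250 before to 50 after an annotated start, 5′ to 3′ on the gene's strand, from RefSeq on GRCm38.p6. Capitals mark each CG, the dinucleotide that is dense in the CpG islands to which Polycomb complexes are recruited. CG reads the same on both strands and its copies cannot overlap. The 6 hold 1, 3, 4, 8, 23 and 25 copies in the order printed, and 95.6% of 20085 promoters hold at least 1. Ccl25 encodes a chemokine that draws cells expressing the receptor Ccr9 to the small intestine (chr8:4349338-4349637, plus strand). Ccr4 encodes a chemokine receptor of skin-homing and helper T cells (chr9:114496495-114496794, minus strand). Ccr9 is the receptor for Ccl25 (chr9:123766961-123767260, plus strand). Cd37 encodes a tetraspanin of the B cell surface (chr7:45238790-45239089, minus strand). Ell2 encodes a transcription elongation factor that plasma cells use to process immunoglobulin transcripts (chr13:75707234-75707533, plus strand). Hspa5 encodes BiP, the chief chaperone of the endoplasmic reticulum (chr2:34771840-34772139, plus strand).
Ccl25: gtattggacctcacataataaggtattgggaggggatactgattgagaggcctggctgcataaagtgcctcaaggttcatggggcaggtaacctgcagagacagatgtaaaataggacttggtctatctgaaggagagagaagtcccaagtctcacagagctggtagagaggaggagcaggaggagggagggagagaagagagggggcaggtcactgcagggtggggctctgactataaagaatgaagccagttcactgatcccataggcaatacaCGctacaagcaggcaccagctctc
Ccr4: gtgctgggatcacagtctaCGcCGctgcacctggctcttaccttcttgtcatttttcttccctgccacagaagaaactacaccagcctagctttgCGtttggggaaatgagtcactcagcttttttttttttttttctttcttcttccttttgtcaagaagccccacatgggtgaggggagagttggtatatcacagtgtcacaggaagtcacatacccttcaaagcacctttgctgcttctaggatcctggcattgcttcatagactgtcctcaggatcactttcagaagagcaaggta
Ccr9: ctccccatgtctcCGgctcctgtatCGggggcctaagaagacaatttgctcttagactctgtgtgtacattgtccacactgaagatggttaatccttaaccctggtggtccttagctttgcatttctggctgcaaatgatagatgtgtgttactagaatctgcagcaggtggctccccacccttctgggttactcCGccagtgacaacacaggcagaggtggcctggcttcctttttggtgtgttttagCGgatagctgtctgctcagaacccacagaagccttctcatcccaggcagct
Cd37: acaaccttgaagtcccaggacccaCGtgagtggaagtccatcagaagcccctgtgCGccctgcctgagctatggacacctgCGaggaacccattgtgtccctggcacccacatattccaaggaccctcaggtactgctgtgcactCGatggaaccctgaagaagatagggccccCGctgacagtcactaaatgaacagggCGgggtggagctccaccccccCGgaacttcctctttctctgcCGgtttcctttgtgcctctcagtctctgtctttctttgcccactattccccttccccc
Ell2: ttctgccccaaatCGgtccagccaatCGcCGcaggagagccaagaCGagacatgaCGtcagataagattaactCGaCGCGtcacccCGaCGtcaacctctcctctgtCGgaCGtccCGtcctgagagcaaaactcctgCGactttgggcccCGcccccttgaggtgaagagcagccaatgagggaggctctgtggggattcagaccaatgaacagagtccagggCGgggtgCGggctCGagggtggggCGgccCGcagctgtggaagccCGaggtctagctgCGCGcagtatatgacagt
Hspa5: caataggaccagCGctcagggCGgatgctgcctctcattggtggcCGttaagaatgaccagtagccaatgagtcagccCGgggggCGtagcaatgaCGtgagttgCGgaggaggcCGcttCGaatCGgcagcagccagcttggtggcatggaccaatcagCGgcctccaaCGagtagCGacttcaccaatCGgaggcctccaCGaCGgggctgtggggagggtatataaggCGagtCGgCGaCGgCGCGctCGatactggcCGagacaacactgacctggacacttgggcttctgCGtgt

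The first 4 of these promoters are poor in CG and the last pair is rich in it, so the regions met both kinds. Over all the promoters that they met, the counts were on the high side, as described further on.

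The regions were of middling length. Their median was 1687 bp (interquartile range 1304 to 2246, range 267 to 7374), against 1469 bp over all merged regions and 4640 bp for the 26744 regions called in all 4 lists. Regions of both KO lists alone had a median of 1457 bp, those of both WT lists alone 1363.5 bp, and those of KO replicate 1 and WT replicate 2 alone 1080 bp. In all, the 10301 regions span 19.3 Mb. Only 66 were longer than 5000 bp and 821 were under 1000 bp.

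Most of them were a simple pair of peaks. In 9769 (94.8%) each of the lists contributed 1 peak. The KO replicate 2 peak covered a median of 86.5% of the region and the WT replicate 1 peak 80.9%. Bases covered by both lists made up a median of 60.0% of the region, or 938 bp. KO replicate 2 covered more bases in 5674 regions (55.1%) and WT replicate 1 in 4613. The boundaries of the called peaks were thus not the same in the lists even where both called the region.

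The rule has an edge, and some regions sit near it. The peaks of KO replicate 2 and WT replicate 1 overlapped by 50 bp or fewer in 55 regions, such as chr11:4094276-4097259, where they shared 2 bp. A peak of KO replicate 1 or WT replicate 2 lay within 50 bp of 101 regions, and at chr12:21094628-21098871 the distance was 1 bp. Just outside the rule were 51 regions in which 1 further list met the pair in 50 bp or fewer. At chr3:89915632-89920133 the peak of WT replicate 2 met the pair by 2 bp and covered 25.3% of the region. Of 14973 regions held by the pair and 1 further list, 2005 were covered to 25% or less by that list.

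Peak height was taken as the maximum signal of a peak and ranked within its own list, since the scale of the signal is not known to be shared. The regions were low in both lists. Their median percentile was 35.8 in KO replicate 2 (interquartile range 17.5 to 56.3) and 35.4 in WT replicate 1 (16.3 to 56.7). Regions called in all 4 lists had medians of 79.2 and 76.9 in the same lists. A region took the rank of its highest peak in a list. Those of all 4 lists were longer, which leaves room for several peaks to take the highest from. The highest of the 10301 reached percentile 96.7 in KO replicate 2 and 97.3 in WT replicate 1.

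**Figure D1:**
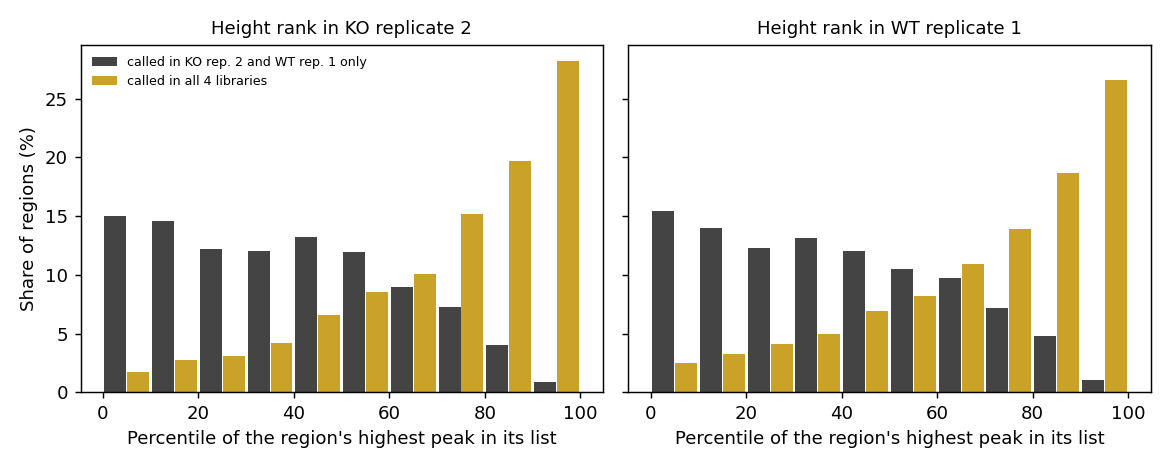
Share of regions (percent, vertical axis) in bins of 10 percentile points of height within KO replicate 2 and within WT replicate 1 (horizontal axis), for regions of that pair alone and for regions of all 4 lists. The pair's regions fill the lower bins, with medians of 35.8 and 35.4, and regions of all 4 lists the upper ones, with medians of 79.2 and 76.9.

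The plot of height percentiles shows that the distributions overlap. A height above percentile 50 in both lists was found in 1474 regions (14.3%), above 75 in both in 221 and above 90 in both in 20. Below percentile 25 in both lists were 1558 (15.1%). Regions above percentile 90 numbered 93 in KO replicate 2 and 103 in WT replicate 1, whereas 28.2% and 26.6% of the regions of all 4 lists lay there.

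Other incomplete patterns gave a scale for these ranks. Regions of KO replicate 2 alone had a median percentile of 28.7 and those of WT replicate 1 alone 28.8. Regions of both KO lists alone stood at 33.5 in KO replicate 2, and regions of both WT lists alone at 32.1 in WT replicate 1. With 1 more list the ranks were higher, at 50.7 and 47.5 for regions missing only from WT replicate 2, and stood at 42.5 and 41.6 for those missing only from KO replicate 1. The heights in the pair went together only loosely over the 10301 regions (Pearson r = 0.229, Spearman rho = 0.209, given as a description since regions of 1 library are not replicates).

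The signal itself moved in whole steps, which gives the heights a plain reading. Maxima were whole multiples of 9.90 in KO replicate 2 and 8.40 in WT replicate 1, to within 0.001 of a step in 99.998% of the peaks of either list. In these steps the median height of a region was 41 in KO replicate 2 (interquartile range 33 to 51, lowest 14, highest 174) and 59 in WT replicate 1 (47 to 74, lowest 20, highest 248). The whole lists had medians of 48 and 69 steps, and regions of all 4 lists 71 and 97. The sources used here do not say what a step stands for.

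In height, nearly all the regions would have met the lowest value seen in the narrower lists. The maximum reached the lowest maximum of WT replicate 2 in 93.3% of regions in KO replicate 2 and 98.6% in WT replicate 1. In total signal, which adds up along the peak, they met it less often. A single peak reached the lowest total of WT replicate 2 in 54.8% of regions in KO replicate 2 and in 68.7% in WT replicate 1, and in both for 4189 regions (40.7%). For the lowest total of KO replicate 1 the shares were 68.3% and 85.2%, and 621 regions (6.03%) fell short of it in both lists. The scale of the signal between lists is not stated, and its part in which lists hold these regions was not tested.

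The regions lay near well-marked ground. The nearest region called in all 4 lists was a median of 6247 bp away (interquartile range 1533 to 20370), and it lay within 1000 bp for 20.3%, within 5000 bp for 45.3%, within 10000 bp for 61.0% and within 50000 bp for 89.0%. Over all merged regions that were not called in all 4 lists the median was 8724 bp, with 52.9% within 10000 bp. An all-4 region stood within 10000 bp on both sides of 1961 regions, on one side of 4324 (42.0%) and on neither side of 4016 (39.0%).

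**Figure D2:**
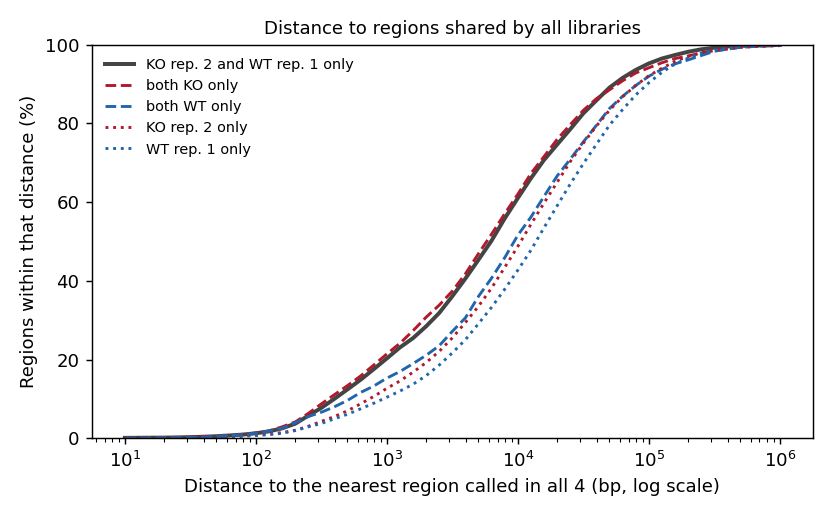
Cumulative share of regions (percent, vertical axis) by distance to the nearest region called in all 4 lists (bp, log axis), 1 line for each pattern of presence. The pair's regions rise earlier than the regions of KO replicate 2 alone or WT replicate 1 alone, with a median of 6247 bp against 10561 and 13745 bp.

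Regions held by 3 lists lay nearest and regions held by 1 list farthest among the patterns given here. Regions missing only from WT replicate 2 lay a median of 3449 bp from an all-4 region, those missing only from KO replicate 1 4019.5 bp, regions of both KO lists alone 5828 bp, regions of KO replicate 1 and WT replicate 2 alone 7997 bp, and regions of both WT lists alone 9292 bp. Regions of KO replicate 2 alone lay at 10561 bp and of WT replicate 1 alone at 13745 bp. The regions of the pair, at 6247 bp, fell between those of both KO lists and those of KO replicate 1 and WT replicate 2. These distances depend on how much each pattern covers and are given without a test.

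The narrower lists were seldom far away. A KO replicate 1 peak was a median of 2756 bp from the region and a WT replicate 2 peak 3423 bp, and one or the other lay within 1000 bp of 33.1%, within 5000 bp of 78.8% and within 10000 bp of 90.5%. Only 103 regions (1.00%) had neither within 50000 bp. The next merged region along the chromosome was an all-4 region in 20.5% of cases, close to the 23.0% of all merged regions that are such, and it was another region of the pair in 10.2%, against 8.87% of all merged regions.

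Around the regions the lists kept the order of their total covered length. Within 10000 bp of the regions, and outside them, peaks covered 16.7% of bases in KO replicate 1 and 28.4% in KO replicate 2, against 25.6% and 11.3% in WT replicates 1 and 2. The broader lists were highest in each genotype and the genotypes overlapped. The mean was 22.6% ± 8.26 in KO and 18.4% ± 10.2 in WT (SD, n = 2 each), a difference of 4.13 percentage points with p = 0.667 by an exact two-sided permutation test, whose smallest p with 2 mice a group is 0.333. Within 5000 bp and within 50000 bp the differences were 3.80 and 3.82 points. Without WT replicate 2, where the rule was applied to the remaining lists and gave 15480 regions, the difference around those regions was -2.23 points.

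**Figure D3:**
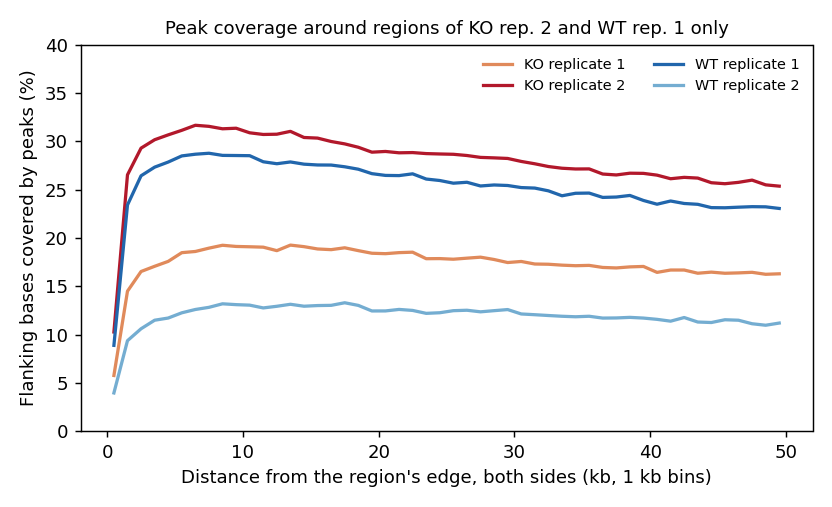
Bases covered by peaks (percent, vertical axis) in 1 kb bins by distance from the edge of the regions (kb, horizontal axis), 1 line for each library. Both broader lists stay above both narrower ones; between 7 and 8 kb the values are 18.9% and 31.5% in the KO replicates and 28.8% and 12.8% in the WT replicates.

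The profile of coverage around the regions rises from the edge outward. In the first kb it was 5.77% and 10.3% in the KO replicates and 8.89% and 3.96% in the WT replicates, low by construction, because a merged region ends where no peak touches it. At 40 to 41 kb it was 16.4%, 26.5%, 23.5% and 11.6%, slightly below the values between 7 and 8 kb in every list.

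The regions were spread over all 19 autosomes. They made up between 7.91% (chromosome 7) and 9.98% (chromosome 10) of the merged regions of a chromosome. Their density ran from 3.11 per Mb on chromosome 14 to 6.26 per Mb on chromosome 11.

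Gene context was close to that of merged regions in general. The body of a protein-coding gene was met by 4699 regions (45.6%), against 46.5% of all merged regions and 51.5% of those in all 4 lists, and 4331 (42.0%) met no annotated gene of any kind. Gene starts were read from the promoter table, which holds none on chromosome 18 and covers 16457 of 20665 protein-coding genes, so start-based shares are over the 9979 regions on the other autosomes. A start lay inside 630 of them (6.31%), against 7.13% of all merged regions, 17.1% of the all-4 regions and 4.13% of merged regions not in all 4 lists. A start lay within 2000 bp of 977 (9.79%). A further 3694 (37.0%) were inside a gene body with the nearest start more than 2000 bp away, and 5308 (53.2%) were outside gene bodies and that far from a start. The median distance to a start was 29260 bp. Exons, introns and UTRs were not used here.

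Regions with a start inside differed from the rest in several measures. Their median length was 1348 bp against 1708 bp for the 9349 without one. Their heights were greater, with median percentiles of 57.9 in KO replicate 2 and 55.4 in WT replicate 1, against 35.8 and 35.4. They were more isolated as well: the nearest all-4 region was 14030 bp away against 5868 bp, the nearest KO replicate 1 peak 6395 against 2642 bp, and the nearest WT replicate 2 peak 7613 against 3271 bp. The share with a start inside was 2.56% of regions within 1000 bp of an all-4 region, 5.03% from there to 10000 bp, 8.74% from there to 50000 bp and 11.9% beyond. These are medians and shares over regions and carry no test.

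Other patterns showed the same contrast in height. Regions with a start inside stood higher than the rest where KO replicate 2 alone called them (48.8 against 28.7), where WT replicate 1 alone did (47.5 against 28.8) and where both KO lists did (57.9 against 33.5 in KO replicate 2). Regions of KO replicate 1 and WT replicate 2 alone were the exception in KO replicate 1, at 33.5 for both. So a higher peak at a gene start was a feature of several patterns and not of the pair alone. The same held for a greater distance to an all-4 region, with medians of 13554.5 against 5371 bp for both KO lists alone. For both WT lists alone the medians were 11975 and 9186 bp. Length went the other way in regions of all 4 lists, at 7892 bp with a start inside against 4277 bp. In those of KO replicate 1 and WT replicate 2 alone it was 1124 against 1082 bp.

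The promoters met by the regions were rich in CG. There were 738 starts of 681 genes, and their 300 bases held a median of 18 CG (interquartile range 9 to 25), with 10 or more in 72.6%. Promoters in all-4 regions had a median of 16 and 67.4% with 10 or more, those in the other merged regions 18, and the 10221 with no peak in any list 8 and 46.6%. Over all 20085 promoters the median was 14 and 57.9% held 10 or more. Regions of both KO lists alone met 272 promoters with a median of 19 CG, and regions of both WT lists alone met 68 with a median of 9.5. For regions of KO replicate 2 alone and of WT replicate 1 alone the medians were 19 and 17.

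Genes were next described by lists of B cell, immune, Polycomb and developmental genes. A gene counted as near if a region met its body or the 2000 bp on either side, which held for 3457 of 20665 protein-coding genes (16.7%). Long genes meet more regions: 6.39% of the shortest 5167 genes had one near and 29.9% of the longest 5166. A start inside a region was found for 681 of 16457 genes (4.14%). These shares are the background for each list below, and no list was tested.

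**Figure D4:**
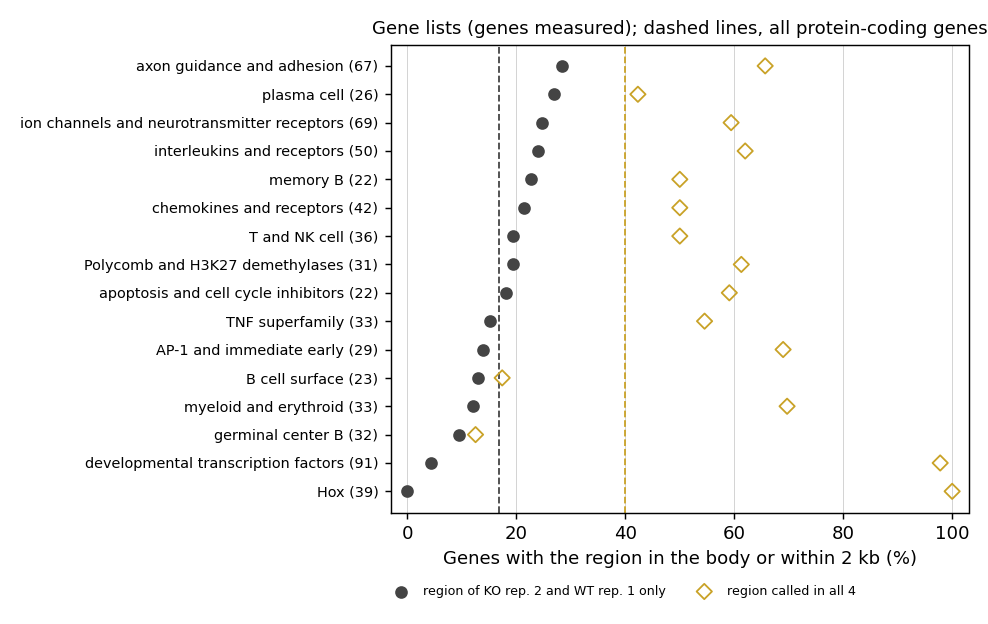
Share of each list's genes (percent, horizontal axis) that had one of the pair's regions, or a region of all 4 lists, in the body or within 2 kb, with all protein-coding genes as reference (16.7% for the pair's regions). Hox genes and developmental transcription factors sit at 0% and 4.40% for the pair's regions, the lowest of the lists.

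The Hox and developmental genes, the classic Polycomb targets, were almost all marked in every list. None of the 39 Hox genes had such a region near and all 39 had an all-4 region. Of 91 developmental transcription factors 4 had one near, Pax3, Pax7, Pax8 and Six2, and 89 had an all-4 region. Peaks covered 56.1% and 86.4% of the body of Pax7 in the KO replicates and 72.8% and 47.4% in the WT replicates, in order of their numbers. Each of these 4 genes was covered in all 4 lists and held 1 region of the pair in its body.

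The plasma cell list included genes of secretion and migration. Of 26 measured genes 7 (26.9%) had a region near, against 16.7% of all protein-coding genes. Of the 21 with an annotated start 4 had it inside one, against 4.14% of all genes with a start. These 4 were Ccr9, Ell2, Hspa5 and Sec61b. The other 3 of the 7 were Creb3l2, Sdc1 and Zbtb20, a transcription factor of long-lived plasma cells. The counts are small and were not tested. Sdc1 encodes CD138, the surface marker of plasma cells, and its body was covered to 49.4% in KO replicate 1 and 77.8% in KO replicate 2, and to 86.4% and 40.8% in WT replicates 1 and 2. Sdc1 thus carried the mark in every list, with wider coverage in the broader ones.

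At Hspa5 the pair alone had peaks near the start in the deposited lists. Within 2000 bp of the start, peaks covered 0% and 38.5% of the bases in KO replicates 1 and 2, and 29.1% and 0% in WT replicates 1 and 2. The region (chr2:34771246-34773079, 1834 bp) was at height percentile 68.1 in KO replicate 2 and at 4.70 in WT replicate 1. The nearest KO replicate 1 peak was 11649 bp away and the nearest WT replicate 2 peak 13658 bp. Its promoter, printed above, held 25 CG. The region no longer met the rule in the higher 50% of each list by height, at equal covered length or at the same lowest total signal.

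Ell2 had the highest peaks of the plasma cell starts. Coverage within 2000 bp of the start was 52.1% in KO replicate 2 and 21.1% in WT replicate 1, against 0% in both other lists. The region (chr13:75706415-75707607, 1193 bp) stood at percentiles 86.8 and 81.6. It was isolated, with the nearest all-4 region 221402 bp away and the nearest KO replicate 1 peak 84309 bp. It met the rule in each of these 3 settings.

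Sec61b encodes a subunit of the channel through which secreted proteins enter the endoplasmic reticulum. Around its start coverage was 42.0% in KO replicate 2 and 27.7% in WT replicate 1, against 0% in the other lists. The region (chr4:47473715-47475394) was at percentiles 24.1 and 52.9. Ccr9 was covered to 53.5% in KO replicate 2 and 52.9% in WT replicate 1, against 0% in the others around its start. The region at Ccr9 (chr9:123766656-123767775) was among the lowest peaks of both lists, at percentiles 1.43 and 5.55. Neither Sec61b nor Ccr9 kept its region in the higher 50% by height or at equal covered length, and at the same lowest total signal Sec61b kept it and Ccr9 did not.

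**Figure D5:**
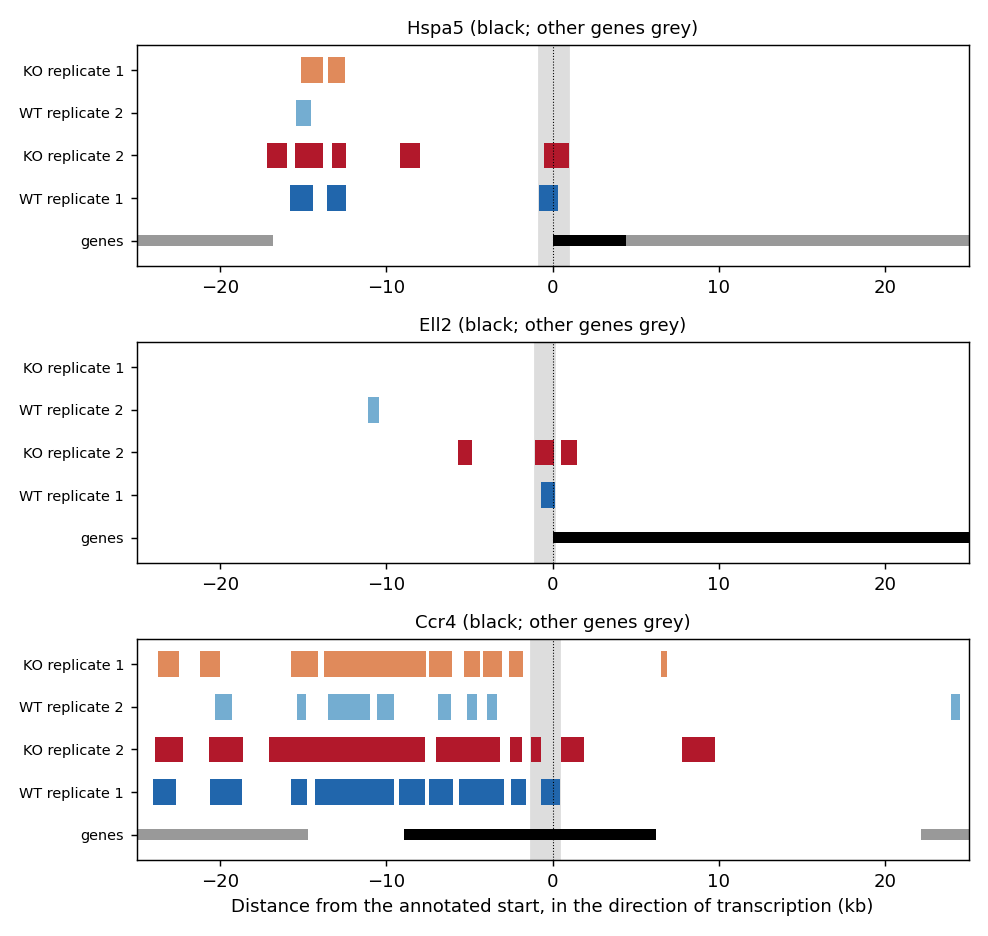
Called peaks in each library (rows) within 25 kb of the start of Hspa5, Ell2 and Ccr4, by distance from the start along the gene's direction (kb, horizontal axis), with gene bodies and the pair's region. At Hspa5 and Ell2 only KO replicate 2 and WT replicate 1 have a peak over the start; at Ccr4 the nearest KO replicate 1 peak is 480 bp from the region.

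Chemokines and their receptors had 9 of 42 genes near a region (21.4%), with 2 of 32 starts inside, Ccl25 and Ccr4. The region at Ccr4 (chr9:114496095-114497861) was a weak pairing, since KO replicate 2 covered 36.5% of it, WT replicate 1 64.6% and both together 1.08%. Around the Ccr4 start coverage was 5.07% and 56.1% in KO replicates 1 and 2, and 37.9% and 0% in WT replicates 1 and 2. Its whole body was covered to 36.3%, 52.1%, 48.9% and 13.1% in the same order, so Ccr4 carried the mark in all 4 lists. Over the start itself only WT replicate 1 had a peak, and the nearest KO replicate 2 peaks lay on either side of it. Ccl25 had 0%, 61.8%, 49.4% and 12.4% around its start, in a region at chr8:4349338-4351313 with a WT replicate 2 peak 1214 bp away.

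Among B cell surface genes 3 of 23 (13.0%) had a region near, namely Cd37, Icosl, the ligand of the costimulatory receptor ICOS, and Cd5. The Cd37 start lay inside a region (chr7:45238210-45239849) at percentile 88.4 in KO replicate 2 and 41.6 in WT replicate 1. Coverage around the start was 37.9% in KO replicate 2 and 32.0% in WT replicate 1, against 0% in the others. The body of Cd37 was covered to 54.2% in KO replicate 2 and 13.5% in WT replicate 1.

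The germinal center list had 3 of 32 genes (9.38%) near a region, Basp1, Pou2f2 and Bach2, and no start of the 24 annotated lay inside one. Counts this small do not set the list apart from the 16.7% and 4.14% of all genes. Memory B cell genes had 5 of 22 (22.7%), Fcer2a, Foxp1, Klf3, Bcl2 and Bach2, with no start of 19 inside. Foxp1, a transcription factor that restrains plasma cell differentiation, held 10 regions in its body, and peaks covered 28.5% and 43.7% of it in the KO replicates and 32.0% and 12.0% in the WT replicates. Bcl2, the survival factor, held 4, with coverage of 6.70%, 16.1%, 7.11% and 1.50%. In both genes KO replicate 2 was the most and WT replicate 2 the least covered.

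T and NK cell genes had 7 of 36 near a region (19.4%) and Runx3, a transcription factor of cytotoxic T cells, had 1 of its 2 annotated starts inside one. Around that start coverage was 27.4% and 69.4% in the KO replicates and 76.8% and 0% in the WT replicates. The region (chr4:135119382-135120863) had a KO replicate 1 peak 686 bp away. Gzmb and Prf1, which encode the killing proteins granzyme B and perforin, each had 1 region in the body. Gzmb was covered to 43.5% in KO replicate 2 and 45.1% in WT replicate 1, against 0% in the others. Prf1 was covered to 4.25% and 52.6% in the KO replicates and to 17.9% and 0% in the WT replicates. Both genes are short and their calls rested mostly on the broader pair.

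Polycomb and histone demethylase genes had 6 of 31 near a region (19.4%), and these were Cbx7, Kdm5b, Pcgf5, Phc1, Phc2 and Phf19. Pcgf5 encodes a subunit of a variant Polycomb repressive complex 1, and 1 of its 3 starts lay inside a region (chr19:36409122-36409752, 631 bp) with percentiles of 62.7 and 68.9. That start had WT replicate 2 coverage close by: around it, coverage was 0% and 10.6% in the KO replicates and 15.8% and 18.995% in the WT replicates. The nearest peak of WT replicate 2 was 255 bp away. Another start of Pcgf5 lay in an all-4 region. Phf19, an accessory subunit that brings Polycomb repressive complex 2 to chromatin, was covered to 17.2% in KO replicate 2 and 2.44% in WT replicate 1, against 0% in the others.

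The remaining immune and signalling lists ran from 12.1% to 24.0%, on either side of the 16.7% of all protein-coding genes. Interleukins and their receptors had 12 of 50 near a region (24.0%), the tumour necrosis factor superfamily 5 of 33 (15.2%), immediate early genes 4 of 29 (13.8%), myeloid and erythroid genes 4 of 33 (12.1%), and apoptosis and cell cycle inhibitors 4 of 22 (18.2%). None of their annotated starts lay inside a region. Lists of long genes had 17 of 69 ion channel and neurotransmitter receptor genes (24.6%) and 19 of 67 axon guidance and adhesion genes (28.4%). Their median genes span 222 and 231 kb against 17.5 kb over all protein-coding genes. Nlgn1, which encodes the synaptic adhesion protein neuroligin 1, was the 1 gene of these with a start inside. KO replicate 2 covered 100% of its region (chr3:26331250-26333778) and WT replicate 1 24.4%, at percentiles 19.7 and 25.6. WT replicate 1 covered 0% of the gene body, so over the start itself only KO replicate 2 had a peak. With presence from 25% of the region covered, the region at Nlgn1 no longer met the rule. The nearest KO replicate 1 peak to it was 827457 bp away.

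The genes with the most regions in the body were long and already marked in every list. Ctif, a translation initiation factor gene, held 13 over 266492 bp, and peaks covered 20.2% and 48.2% of it in the KO replicates and 45.4% and 11.9% in the WT replicates. Sorcs2, a sorting receptor of neurons, and Cdh23, a cadherin of inner ear hair cells, held 12 each. Rnf220, Plce1, Kcnip1, Dnm3, Thsd4 and Nav2 held 11 each and Rapgef4 held 10. In each of these 10 genes KO replicate 2 and WT replicate 1 covered more of the body than the other lists. The way the genes were picked favours this, because by the rule each region adds coverage in that pair alone. Those lists are also the broadest. Most genes held none: 17575 had 0, 2198 had 1, 485 had 2, 205 had 3 and 202 had 4 or more.

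The longest regions were large single intervals in the pair. The longest, of 7374 bp at chr9:48615083-48622456, lay 7427 bp from Nnmt, and KO replicate 2 covered 95.7% of it and WT replicate 1 47.6%. A region of 7112 bp at chr4:63312715-63319826 lay inside the collagen gene Col27a1, covered to 69.4% and 90.9%. At chr15:101868564-101875446 a region of 6883 bp met the keratin gene Krt77 covered to 91.5% and 92.5%. A WT replicate 2 peak lay within 1062 bp of the first and 982 bp of the last of these. The other 3 of the 6 longest were chr2:29235419-29242354 inside Ntng2, of 6936 bp, chr4:47834624-47841266 in a stretch whose nearest protein-coding gene, Nr4a3, was 203811 bp away, of 6643 bp, and chr8:69073580-69080215 inside Slc18a1, of 6636 bp.

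The highest regions were short. At chr3:9037860-9038823 (964 bp) the percentiles were 96.4 and 97.3, or 1643.4 and 2083.2 in signal units of each list, with a KO replicate 1 peak 490 bp away. At chr7:140221246-140221512, inside Cd163l1, a region of only 267 bp was covered to 100% by both lists, at percentiles 95.0 and 95.3. Others met Capn10 (chr1:92934251-92934801), Mycbp (chr4:123904432-123905151) and Eif1 (chr11:100319611-100320753), and 1 lay beside the start of Eif4ebp2 (chr10:61452725-61453451). Of the 20 regions above percentile 90 in both lists, 36.8% of those with start data had a gene start inside.

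Distance extremes set the range. The farthest from any all-4 region, at 2784886 bp, was chr1:98095606-98096474 at the start of Pam, an enzyme that amidates peptides, at percentiles 59.6 and 7.52. Another, chr14:87146079-87147676, lay 2697116 bp away near Diaph3, with a WT replicate 2 peak at 1954 bp. The third, chr1:97682187-97683475, lay 2371467 bp away and 20168 bp from Macir. The nearest lay 3 bp from an all-4 region: chr1:58295888-58297752 inside Aox2 and chr19:8683787-8685554 beside Chrm1. At chr13:73587507-73589832, 8834 bp from Slc6a3, the distance was 4 bp.

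The genotypes were compared over all merged regions by the percent of each region that peaks covered. No region passed limma's test at an adjusted p of 0.05 in either direction (0 of 116146, 0%). With no adjustment, a p under 0.05 was met by 715 regions higher in KO (0.616%) and by 216 lower (0.186%), and none of the 10301 was among them. Their median difference was 2.28 percentage points, KO minus WT, positive in 5686, against a median of 11.5 points over all merged regions. When the fit also took in how many bases each list covers, the direction turned, to a median of -24.5 points, positive in 1114. Over all merged regions that fit gave a median of 0.0130 points. By the rule the 10301 are held by the broader lists alone, so their values follow covered length by construction. The turn in direction therefore says nothing about genotype. In the fit without covered length, the rule caps the difference at 50 points. With a standard error of 44.7 points such a difference gives an unadjusted limma p of 0.263, so that fit could not have called any of these regions. Where covered length was included, the largest difference among the 10301 was 62.8 points in size, and the smallest unadjusted limma p was 0.137. The 4 libraries stand for 4 mice as far as the labels say, and the comparison measures only the spread among them.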

How the data were processed

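CUT&Tag for H3K27me3 gave 1 list of peaks for each of 4 mice. The authors deposited peaks called with SEACR in stringent mode on mm10, with a total and a maximum signal for each peak, per the labels and the submitters' processing notes, which also name Trim Galore 0.6.6, Bowtie2 2.4.2, SAMtools 1.11 and deepTools. The sources used here state neither the control or threshold of the peak calling nor how the signal was scaled, and read depth is unknown.

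Peaks on chromosomes 1 to 19 were merged where they overlapped or touched, and each merged region was assigned to the lists that met it (Python 3.11.15, pandas 2.3.3). Gene positions and promoters came from RefSeq on GRCm38.p6, which has the coordinates of mm10, and starts were not used on chromosome 18. Height percentiles are ranks within a list, with ties at their middle. The covered share of each merged region was compared between genotypes with limma 3.58.1 and Benjamini-Hochberg adjustment. Flank coverage was compared by an exact permutation test. Scripts were tested on simulated data.

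The regions and gene lists were chosen with earlier results of these data known. Named were the 6 longest and 6 highest regions, the 3 farthest from and 3 nearest to a region of all 4 lists, the 10 genes with the most regions in the body, and every listed gene with a start inside a region. Members of a list near a region were named besides. Of 657 listed entries, 639 were matched. Other height limits, merging distances, presence rules, an equal covered length, chromosomes X and Y, all annotated genes, covered length as a covariate, and each library left out were tried as alternatives. One marker gene is not reported here.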

Additional observations from a re-analysis of the deposited data

How the results depend on the processing

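The number of regions depended strongly on the peak lists. It was 4798 in the higher 50% of each list by height, 244 at equal covered length, 5555 with peaks up to 1000 bp apart merged, 5019 with the same lowest total signal in all lists (chosen after seeing the data), and 15480 to 30559 with 1 library left out, where fewer lists define the pattern (20863 without KO replicate 1, 27131 without KO replicate 2, 30559 without WT replicate 1, 15480 without WT replicate 2). Of the 10301, 4188 (40.7%) met a region of the pair at the same lowest total signal, 1444 (14.0%) in that higher 50% and 146 (1.42%) at equal covered length. Of the 28 named regions, 12 met the rule in that higher 50%, 7 at equal covered length, 17 with wider merging, 27 with presence from 25% of the region covered and 19 at the same lowest total signal. At equal covered length Ell2 alone of the 10 listed genes with a start inside kept its region. The median distance to an all-4 region, 6247 bp, was 12361 bp in that higher 50%, 29581.5 bp at equal covered length, 9514 bp with wider merging, 9802 bp with presence from 25% of the region covered, 5629 bp at the same lowest total signal, and 3142 (without WT replicate 2) to 8388 bp with 1 library left out, with 3448 bp without KO replicate 1. The share in gene bodies was 58.0% with all annotated genes, 60.7% at equal covered length, 49.0% with wider merging and 44.5% to 46.7% with 1 library left out. The median height percentile in KO replicate 2 was 38.5 in that higher 50%, 35.7 at equal covered length, 40.3 with presence from 25%, 35.9 with chromosomes X and Y, 32.7 at the same lowest total signal and 31.1 to 42.5 with 1 library left out. In WT replicate 1 it was 37.9, 42.5 and 38.6 in the first 3 of these settings, 35.0 at the same lowest total signal and 32.1 to 41.6 with 1 library left out. Where a setting dropped peaks from the lists, percentiles were taken anew within the shortened list. Those values are therefore not on the scale of the full lists and do not show that the heights stayed the same. The flank difference, 4.13 points, ran from -2.23 (without WT replicate 2) to 9.49 with 1 library left out and was 0.483 at equal covered length; the cause was not tested. Regions called by limma, 0 in the full comparison, numbered 22152 higher and 102 lower in KO without KO replicate 1, where KO replicate 2 stands alone and is assumed to vary like WT, and 0 with any other library left out; none of the pair's regions was called in any setting, among them the fit with covered length as a covariate. No paired analysis was possible because the labels carry no replicate numbers. With 4 libraries, unknown depth and lists of unequal breadth, absence from a list does not show that the mark was absent.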

Other observations

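Starts inside the regions were also counted for 9 gene families, picked by symbol after their values had been seen. Of 40 genes of mitochondrial complex I (symbols in Nduf) 6 had one (15.0%), among them Ndufa13, Ndufb4 and Ndufv1. Of 61 heat shock and DnaJ genes 8 had one (13.1%), and these included the endoplasmic reticulum chaperones Hspa5, Hsp90b1, Dnajb9 and Dnajb11. Proteasome genes had 4 of 42 (9.52%), translation initiation factors 3 of 41 (7.32%), ribosomal protein genes 5 of 72 (6.94%) and Zfp zinc finger genes 21 of 327 (6.42%). Genes of protein translocation (Sec61, Srp and Ssr) had 1 of 13 (7.69%), histone genes 2 of 75 (2.67%) and olfactory receptor genes 4 of 938 (0.426%). The value over all genes with a start is 4.14%. In all-4 regions the shares were 10.0% for complex I genes, 36.1% for heat shock and DnaJ genes and 28.4% over all genes. No family was tested.

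Of 919 miRNA hairpins on chromosomes 1 to 19 in RefSeq, 23 lay in the regions (2.50%) and 160 in regions of all 4 lists (17.4%). Merged regions of any pattern held 264 of the hairpins, and the pair's regions make up 8.87% of all merged regions. The hairpins in the pair's regions included Mir210 and Mir484, and their number was not tested.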
